A study of Mus musculus with 2 samples.

Results

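The genes described here encode the mitochondrial respiratory chain and ATP synthase. They were taken as all probe sets with exactly 1 gene symbol that belongs to the nuclear-encoded Nduf, Sdh, Uqcr, Cox4 to Cox8, Cyc1, Cycs or Atp5 families. The rule used names only and gave 184 probe sets of 45037, which stand for 92 genes of 18193. Of these, 36 were complex I (Nduf) subunits, 8 were complex I assembly factors (Ndufaf), 4 belonged to complex II, 9 to complex III, 17 to complex IV and 17 to ATP synthase (complex V), and cytochrome c itself (Cycs) was the last. A further 10 probe sets list a member together with another gene and were left out, so that Ndufs6 and Ndufa11 have no value here and Ndufb4 keeps only a dim one. Ndufa4 and Ndufa4l2 were grouped by name with complex I.

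The cells were A2lox.Mesp1 mouse embryonic stem cells of the 129/Ola background, which carry a Mesp1 transgene under the control of doxycycline (dox). Mesp1 encodes a bHLH transcription factor that is active early in the mesoderm. Both cultures carried the transgene and grew as embryoid bodies, and on day 5 cells with Flk1 and Tie2 on their surface, a gate for endothelium, were sorted. The untreated culture had no dox, and the treated culture had 250 ng/mL from day 2, which the labels end at day 4. There is 1 array per condition, so every difference compares these 2 samples, carries no p-value and has no replicate check, and an effect of dox itself cannot be told apart from that of Mesp1. In bulk RNA, fewer cells of a type and less RNA per cell cannot be told apart.

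The respiratory chain moves electrons along the inner mitochondrial membrane. Complex I takes them from NADH and complex II from succinate, ubiquinone carries them to complex III, cytochrome c carries them on to complex IV, and complex IV hands them to oxygen. Complexes I, III and IV pump protons, and ATP synthase lets the protons flow back to make ATP. Pluripotent cells and endothelium are known to lean on glycolysis, while cardiac muscle is known for its dense mitochondria, and several complex IV subunits exist as a general form and as a form of heart and skeletal muscle.

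Signals are linear, in arbitrary units. Differences are on the log2(signal + 16) scale, dox minus no dox, and each gene is represented by its brightest probe set. A gene passed the signal filter when its signal reached the array median (112 without dox, 127 with dox) on at least 1 array. That left 88 of the 92 members and 11794 genes in all. Mesp1 gave 2433 without and 10977 with dox, a log2 difference of 2.17. Kdr, which encodes Flk1, differed by 0.082 and Tek, which encodes Tie2, by 0.076. All 8 endothelial markers examined were past the filter and within 1.5-fold by their brightest probe sets. A second probe set of Erg gave -1.81 and one of Cdh5 gave 0.27. Marker genes of some other cell types differed between the samples. The summed signal of 8 cardiomyocyte genes past the filter was 2479 without and 8433 with dox. For 9 genes of smooth muscle and mesenchyme the sum was 4965 and 36676. In each of these lists 4 genes passed by their signal with dox alone and so had to be higher to be counted. For 5 erythroid genes the sum was 6743 and 2927, and 1 of them passed by its signal without dox alone. Of these 5, 4 were lower, Hbb-bh1 by the most (3282 to 535), and 1 was higher (Epor, 453 to 565). The pluripotency genes Pou5f1, Nanog, Sox2 and Zfp42 were below the filter on both arrays. Whether the number of such cells differed, and their part in the values below, was not tested.

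The respiratory chain and ATP synthase genes were nearly level between the samples. Of the 88 members past the filter, 86 lay within 1.5-fold, 1 was higher by that much (Cox6b2) and 1 lower (Ndufaf5). Over all 11794 genes, 18.9% differed by 1.5-fold or more, 11.8% higher and 7.06% lower. Of the 2949 genes in the brightest 25% by mean signal, 10% did. At 2-fold the single member was Cox6b2, against 7.75% of all genes. Cox6b2 passed by its signal with dox alone, so it had to differ to be counted there.

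Within that narrow range most members were slightly lower with dox. With no size limit 66 of the 88 were lower and 22 higher, which is 75% lower against 44.4% of all genes. Their median log2 difference was -0.064, with the middle of the distribution between -0.14 and -0.0094 (quartiles), against a median of 0.047 for all genes (quartiles -0.19 and 0.31). The members' median was below 0 and below that of all genes under the main setting and all 9 alternatives, by 0.060 to 0.16 relative to all genes. Its size against 0 depends on the scaling of the arrays: dividing each array by its median moved the median of all genes to -0.13 and that of the members to -0.25. Of the 22 members that were higher, 6 were still higher in that setting (Ndufb7, Ndufv3, Ndufaf3, Ndufaf7, Cox6b2 and Cox8c). For scale, probe sets of the same gene disagreed with a pooled SD of 0.26 over all genes and 0.14 over the members (mean signal of 500 or more), which measures probe effects and noise, not the spread between cultures.

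**Figure D1:**
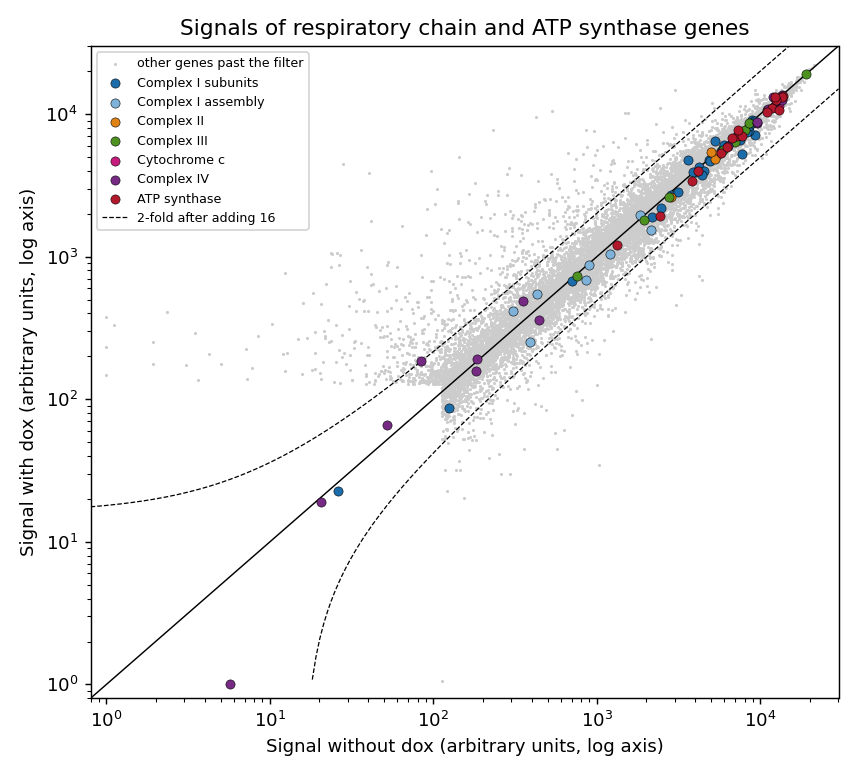
Signal without dox (x axis) against signal with dox (y axis), both in arbitrary units on log axes, for all genes past the filter (grey) and the 92 members (coloured by complex). The line marks equal signals and the dashed curves a 2-fold difference after adding 16; the members follow the line, and Cox6b2 (84.1 to 184) sits on the upper curve.

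The members are mostly bright. Of the 88, 64 lay in the brightest 25% of genes, and 16 of the 311 genes with a mean signal of 10000 or more were members. Whether so bright a probe set still responds in proportion could not be judged from the table. The 24 members below the brightest 25% had a median of -0.10 with 18 lower and 6 higher, and the 64 brighter ones a median of -0.060 with 48 lower and 16 higher. The share of lower members was thus 75% in both, while the dimmer members spread more widely (SD over genes 0.34 against 0.13). The value of 0.34 includes Cox6b2, which had to differ to be counted. Within 0.25 lay 58.3% of the dimmer members and 92.2% of the brighter ones.

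Each of the complexes had a median just below 0. The median was -0.062 for 35 complex I subunits, -0.095 for the 4 of complex II, -0.052 for the 9 of complex III, -0.068 for 14 of complex IV and -0.071 for the 17 of ATP synthase. Complex III was the most even, with all 9 genes between -0.14 and 0.011. The 8 assembly factors of complex I spread from -0.59 to 0.41, with a median of -0.12 and 3 of 8 within 0.25, against 30 of 35 complex I subunits. All these medians stayed below 0 under each alternative, although that of complex II came as close as -0.0070 when probe sets were averaged.

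**Figure D2:**
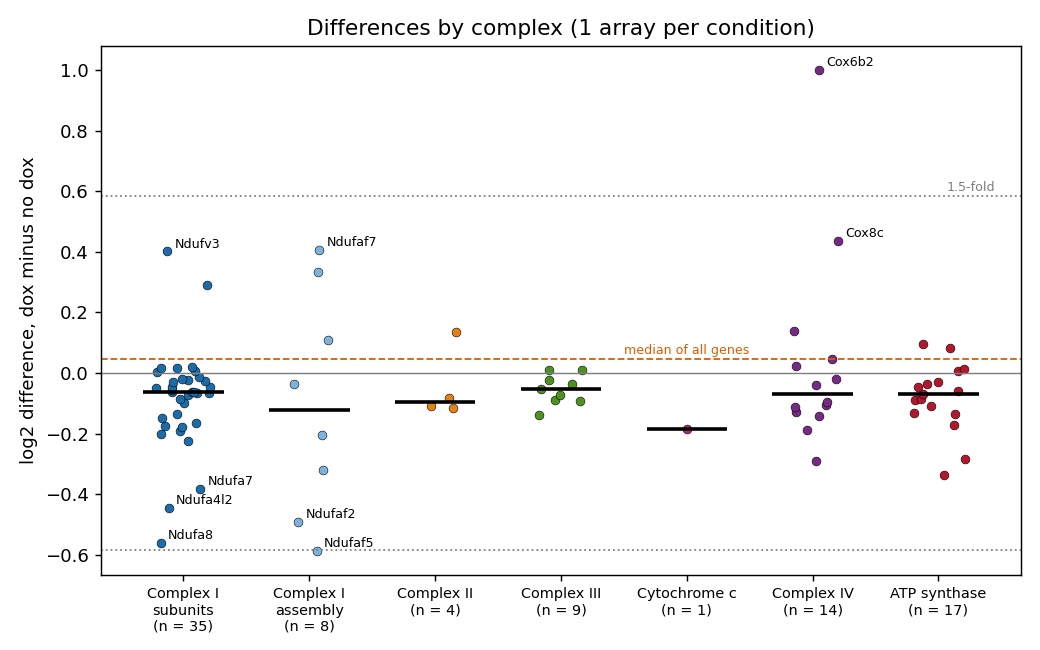
log2 difference (dox minus no dox) of each of the 88 members past the filter, by complex; each point is a gene, black bars are medians, dotted lines mark 1.5-fold and the dashed line the median of all genes (0.047). Complex medians lie between -0.12 and -0.052, and the single cytochrome c gene lies at -0.19. The spread (SD over genes) is widest for the complex I assembly factors (0.37) and complex IV (0.33). The complex IV value includes Cox6b2, its highest gene, which passed by its signal with dox alone and so had to differ. Within 0.25 lie 11 of the 14 complex IV genes, and the spread without Cox6b2 was not computed.

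Some members' promoters hold motifs that the rule did not use. NRF1 and GABP are nuclear factors known to act on respiratory chain genes, and the sequences below show matches to their motifs in 4 complexes. RefSeq promoter sequences (build GRCm38.p6, 250 bases before to 50 after the annotated start) were at hand for 75 of the 92 genes, in 80 windows. The stretches shown lie before the start and are on the minus strand of the genome, written 5′ to 3′ along the gene. Capitals mark the NRF1 motif, the only match in the first sequence, and the GABP or ETS core CCGGAAG or its reverse complement CTTCCGG. Both motifs were searched on both strands, and no matches to these motifs overlapped in the members' windows. The stretches come from chr2:36049339-36049393 (Ndufa8), chr13:74350241-74350363 (Sdha), chr9:50603864-50603953 (Sdhd), chr5:115348959-115349145 (Cox6a1) and chr15:102671055-102671114 (Atp5g2).
Ndufa8: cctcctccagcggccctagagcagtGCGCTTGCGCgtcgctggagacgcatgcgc
Sdha: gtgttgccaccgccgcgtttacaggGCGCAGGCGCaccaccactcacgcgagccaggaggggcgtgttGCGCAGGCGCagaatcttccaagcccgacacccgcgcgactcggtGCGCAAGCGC
Sdhd: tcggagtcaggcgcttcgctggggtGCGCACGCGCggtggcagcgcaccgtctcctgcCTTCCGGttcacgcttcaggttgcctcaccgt
Cox6a1: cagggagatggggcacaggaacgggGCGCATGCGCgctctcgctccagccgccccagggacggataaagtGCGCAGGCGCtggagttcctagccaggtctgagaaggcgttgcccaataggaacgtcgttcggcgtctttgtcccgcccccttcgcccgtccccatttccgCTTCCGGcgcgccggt
Atp5g2: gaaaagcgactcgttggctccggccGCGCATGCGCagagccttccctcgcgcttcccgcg
Sdha carries 3 NRF1 matches in this stretch and Cox6a1 2, while Sdhd and Cox6a1 also hold the GABP core.

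NRF1 matches stood in the windows of 17 of the 75 members (22.7%), against 11.6% of the 9508 genes past the filter that had a window and 5.19% of all 27025 genes in the table. The GABP core stood in 25.3% of members, 19.8% of genes past the filter and 9.93% of all. For the YY1 motif AAGATGGCG, either strand, the shares were 9.33%, 3.57% and 1.64%, and for the TATA box TATAAA on the gene's strand before the start they were 2.67%, 4.8% and 8.94%. In the bases before the start alone, the shares in the same order were 16%, 9.33% and 4.23% for NRF1, 18.7%, 15.5% and 7.83% for the GABP core, and 1.33%, 1.37% and 0.71% for YY1, so that 1 of the 7 members with the YY1 motif kept it. A match is only a match of letters. The signals of members with and without a match had similar medians: the log2 difference had a median of -0.047 for 16 members with the NRF1 motif and -0.063 for 55 without, and -0.074 for 19 with the GABP core and -0.062 for 52 without. All 7 members with the YY1 motif were lower (median -0.13), as were 46 of 64 without it (median -0.057). Ndufa8, whose promoter is shown, was among the lowest members, whereas Sdha, Sdhd, Cox6a1 and Atp5g2 lay within 0.25.

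Complex I begins with the arm that oxidises NADH. Ndufv1, which binds NADH and the flavin, had a signal of 7539 without and 6548 with dox (log2 difference -0.20). Ndufv2, an iron-sulfur subunit beside it, had 7606 without and 7099.5 with dox (-0.099), and Ndufs1, the large iron-sulfur subunit of this arm, had 3123 without and 2845 with dox (-0.13). All 3 were lower by a small amount. In the arm that passes electrons to ubiquinone, Ndufs8 had 4377 without and 3745 with dox (-0.22), Ndufs7 had 4942 without and 4653 with dox (-0.087) and Ndufs3 had 4816 without and 4738 with dox (-0.023). Ndufs7 and Ndufs8 carry iron-sulfur clusters, and all 6 core subunits measured were lower, with a median of -0.12. The 29 accessory subunits, which surround the core, had a median of -0.055 with 22 lower and 7 higher.

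Several complex I genes were lower by every one of their probe sets. Ndufs8 has 6 probe sets, all lower, from -0.38 to -0.17. Ndufv1 has 3, all lower, from -0.25 to -0.18. Ndufa7, an accessory subunit, had 9228 without and 7079 with dox by its brightest probe set (-0.38), and its 5 probe sets were all lower, from -0.45 to -0.11. Probe sets of 1 gene share the same RNA, so this checks the probes and not the difference between cultures.

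The accessory subunits with the widest differences lay on both sides. Ndufa8, a subunit on the intermembrane-space side, had 7677 without and 5199 with dox (-0.56), just short of 1.5-fold, and rests on 1 probe set. Ndufv3, a small subunit of the NADH-oxidising arm, had 3579.6 without and 4733 with dox (0.40), also from 1 probe set. Ndufb7 had 5271 without and 6446 with dox (0.29), and its other probe set was higher by 0.074. Ndufab1, the mitochondrial acyl carrier protein, is the member whose probe sets disagree by more than 1: the brightest had 5088 without dox and 4862 with dox (-0.065), another had 449 and 769 (0.76), and one more that passed gave -0.38. No direction can be given for it.

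Besides these, Ndufa7 and Ndufa4l2, the last described with the isoforms, the accessory subunits of complex I lay within 0.25. Ndufa9, which sits near the ubiquinone site, had 8502 without and 7579 with dox (-0.17), and Ndufs4, a subunit known from mouse models of mitochondrial disease, had 4504 without and 3984 with dox (-0.18), with its 3 probe sets past the filter all lower. Ndufb2 (2159 to 1890.5, -0.19) and Ndufb1 (2477 to 2189, -0.18) were the lowest of these. At the other end stood Ndufa1 (8924 to 9056, 0.021) and Ndufb9 (5127 to 5189.7, 0.017), whose probe sets went in both directions. The Ndufb subunits belong to the membrane arm, and the 10 of them past the filter ran from -0.19 to 0.29.

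Among the complex I assembly factors, which build the complex and are not part of it, Ndufaf5 had 389 without and 253 with dox (-0.59) and Ndufaf2 2153 without and 1527 with dox (-0.49). Ndufaf6 was lower too (855 to 682, -0.32), while Ndufaf7 (308 to 414, 0.41) and Ndufaf3 (428 to 543, 0.33) were higher. These 5 rest on 1 probe set each, most of them dim. The other 3, Ndufaf1 (-0.036), Ndufaf4 (0.11) and Ndufaf8 (-0.21), lay within 0.25. Of 8 assembly factors outside the Nduf names, 1 was 1.5-fold or more lower and 1 higher, against 18.9% of all genes in either direction. Nubpl, which delivers iron-sulfur clusters to complex I, was 1.65-fold lower (2099 to 1265). Timmdc1, a membrane assembly factor, was 1.57-fold higher (697 to 1100.0). The third by size was Tmem126b (212 to 244, 0.19), and the other 5 lay within 0.25. The median of the 8 was 0.094, or -0.086 when each array was divided by its median.

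Complex II, succinate dehydrogenase, is also an enzyme of the citric acid cycle. Its flavoprotein Sdha had 5449 without and 5148 with dox (-0.082) and its iron-sulfur subunit Sdhb 5263 without and 4859 with dox (-0.11). The membrane anchors were Sdhc (2839 without and 2631 with dox, -0.11) and Sdhd (4965 without and 5453 with dox, 0.13). All 4 lay within 0.25, and for Sdha, Sdhc and Sdhd the probe sets past the filter went in both directions. No direction can be given for these 3.

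Complex III passes electrons from ubiquinol to cytochrome c through cytochrome c1 and the Rieske protein. Cyc1, cytochrome c1, had 8058 without and 7772 with dox (-0.052), and Uqcrfs1, the Rieske iron-sulfur protein, had 6995 without and 6357 with dox (-0.14). The core proteins were Uqcrc1 (5929 without and 5579 with dox, -0.087) and Uqcrc2 (10931 without and 10747 with dox, -0.024). The 5 small subunits ran from -0.092 (Uqcrq) to 0.011 (Uqcrb). No member of complex III differed by as much as 0.25. Cycs, the mobile cytochrome c that also takes part in apoptosis, had 13010.4 without and 11436 with dox (-0.19), and its 3 probe sets past the filter were all lower, from -0.32 to -0.19.

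**Figure D3:**
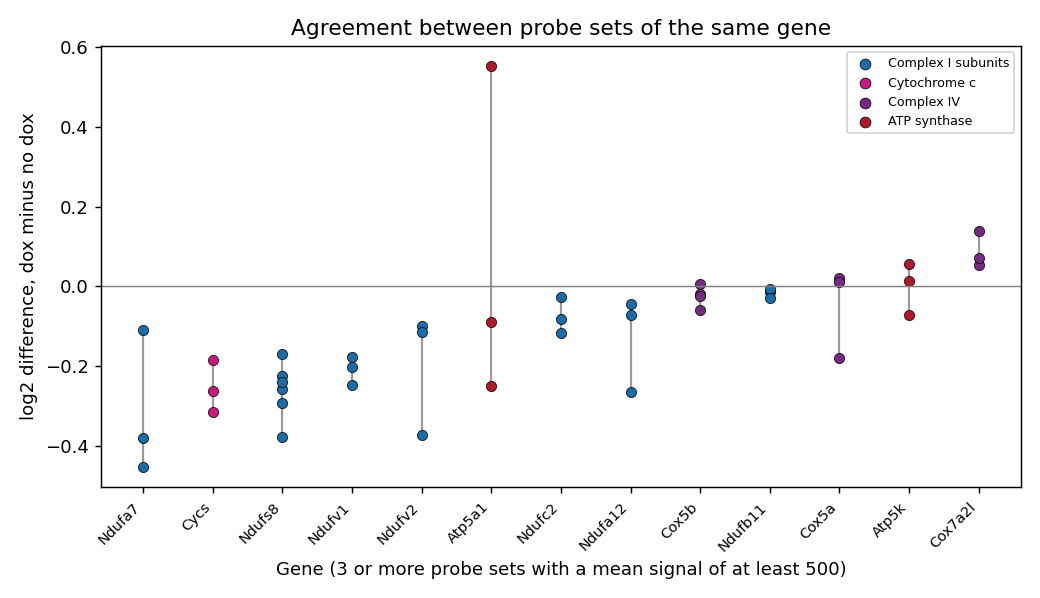
log2 difference (dox minus no dox) of every probe set with a mean signal of at least 500, for the 13 members with 3 or more of them; each point is a probe set and grey lines join those of a gene. In 8 of the 13 all probe sets are below 0 and in Cox7a2l all 3 are above, while those of Atp5a1 range from -0.25 to 0.55. The same count over all genes was not made.

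Over the members as a whole, 39 genes had at least 2 probe sets with a mean signal of 500 or more. In 23 of them all such probe sets were lower with dox, in 2 (Cox7a2l and Ndufb7) all were higher, and in 14 they went both ways. In 33 of the 39 the probe sets differed from one another by less than 0.25. These counts were not made over all genes, so they have no share to be set against.

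Complex IV, cytochrome c oxidase, uses electrons to reduce oxygen. Its general nuclear-encoded subunits were even. Cox4i1 had 12134 without and 11109.5 with dox (-0.13), Cox5a 13456 without and 13661 with dox (0.022) and Cox5b 12676 without and 12502 with dox (-0.020). The other general forms, Cox6a1 (-0.14), Cox6b1 (-0.11), Cox6c (-0.10), Cox7a2 (-0.039) and Cox8a (-0.096), lay within 0.25 as well. Cox7c differed by -0.29 (445 to 361), and both of its probe sets were lower. Cox7a2l, which helps join complexes into supercomplexes, had 11977 without and 13196 with dox (0.14), and its 3 probe sets were all higher, from 0.052 to 0.14, although its difference was -0.043 when each array was divided by its median.

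The muscle forms of complex IV subunits were dim in both samples. Cox6a2, the heart and skeletal muscle form of subunit 6a, had 184 without and 190.5 with dox (0.045). Cox7a1, the muscle form of subunit 7a, had 51.7 without and 66.4 with dox, and Cox8b, the muscle form of subunit 8, had 5.73 without and 1 with dox, the floor of the table. Cox7a1 and Cox8b did not pass the filter, so no difference is drawn from them. In the same samples 7 of the 8 cardiomyocyte markers that passed were at least 2-fold higher with dox, among them Tnnt2 (122 to 1469), Myl4 (31.0 to 674) and Nebl (1 to 379), 4 of them passing by the signal with dox alone. Ckmt2, the mitochondrial creatine kinase of heart and skeletal muscle, was below the filter as well (2.99 to 1.74).

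Other tissue-restricted forms differed little or were dim. Cox6b2, known as the testis form of subunit 6b, had 84.1 without and 184 with dox (log2 difference 1.001), a difference that rests on 1 probe set and a signal below the array median without dox. Cox8c, another testis form, had 354 without and 485 with dox (0.44), but its other probe set gave -0.16. Cox7b2 had 20.6 without and 18.9 with dox and did not pass the filter. Cox4i2, a form of subunit 4 linked to low oxygen, had 181 without and 157 with dox (-0.19). Ndufa4, named for complex I but now known as a subunit of complex IV, had 7901 without and 7552 with dox (-0.065), and its hypoxia-induced relative Ndufa4l2 had 124 without and 87.2 with dox (-0.44), which passed by its signal without dox alone. The remaining member below the filter was Ndufb4 (26.1 to 22.8), whose brighter probe sets list several genes.

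**Figure D4:**
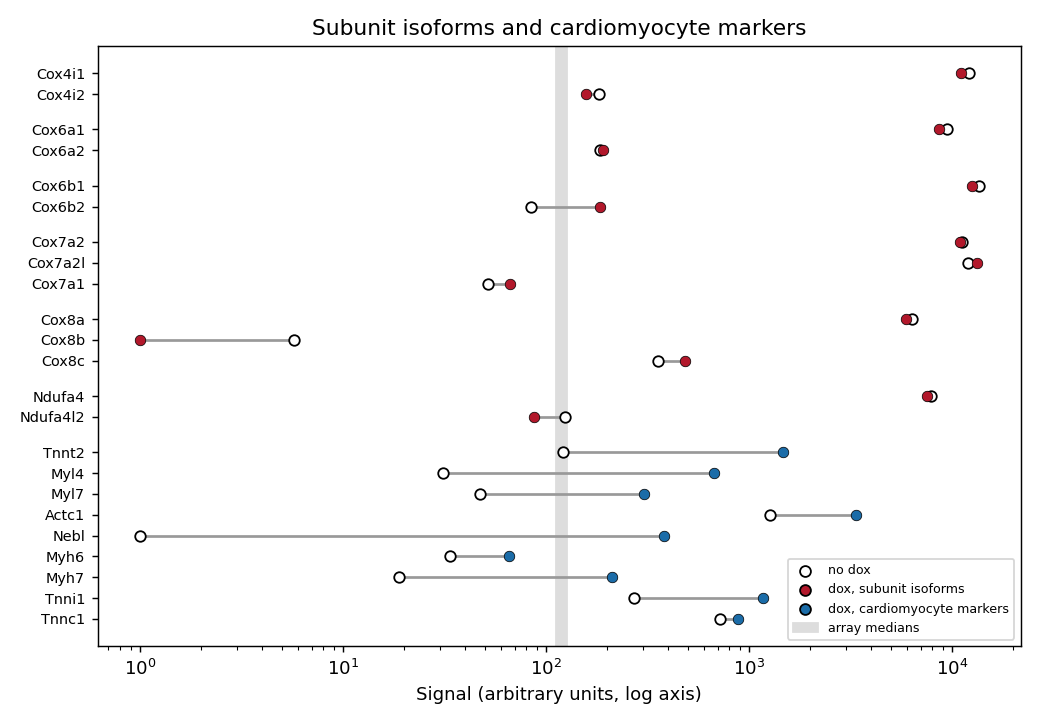
Signal (arbitrary units, log axis) without dox (open) and with dox (filled) for isoforms of complex IV subunits and Ndufa4 (red) and for 9 cardiomyocyte markers (blue); the grey band spans the 2 array medians. Levels of different probe sets cannot be compared with each other; within a row, the muscle form Cox6a2 stays at 184 and 190.5 while Tnnt2 goes from 122 to 1469.

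ATP synthase has a catalytic head, a stalk and a membrane ring. In the head, the alpha subunit Atp5a1 had 11792 without and 11081 with dox (-0.090) and the catalytic beta subunit Atp5b 13049.8 without and 10727 with dox (-0.28). Atp5b has 1 probe set. Those of Atp5a1 disagreed, at -0.25, -0.090 and 0.55, the last from a probe set of lower signal (442 to 655), so no direction can be given. In the central stalk, Atp5c1 (gamma) had 13687 without and 13350.2 with dox (-0.036), Atp5d (delta) 7146 without and 6998 with dox (-0.030) and Atp5e (epsilon) 1324 without and 1204 with dox (-0.14). The stalk was thus close to even by its brightest probe sets. A second bright probe set of Atp5d (4977 to 4145) gave -0.26 and a dim one of Atp5c1 (126 to 208) gave 0.65.

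The membrane ring is made of identical c subunits that are encoded by 3 genes. Atp5g1 had 2419 without and 1911 with dox (-0.34), Atp5g2 5712 without and 5295 with dox (-0.11) and Atp5g3 13526 without and 13099 with dox (-0.046). All 3 were lower by their brightest probe sets, Atp5g1 by the most of any ATP synthase gene, while a dim probe set of Atp5g2 was higher (0.43). The other 9 ATP synthase genes, of the peripheral stalk and the membrane part, ran from -0.17 (Atp5mpl) to 0.097 (Atp5pb). The probe sets of Atp5o, which joins the head to the peripheral stalk, differed by -0.087 and -0.086.

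Comparison with like gene families places the members between cytosolic and mitochondrial ribosomes. The 44 cytosolic ribosomal protein genes had a median of -0.034 with 31 lower, and the 76 mitochondrial ribosomal protein genes a median of -0.16 with 58 lower. At 1.5-fold, 1 cytosolic ribosomal gene was higher and 2 mitochondrial ones were lower. Within 0.25 lay 83% of the members, 88.6% of the cytosolic and 64.5% of the mitochondrial ribosomal genes, with 50% of all genes and 63.4% of the brightest 25%. The 14 glycolysis genes past the filter had a median of -0.17 and spread more widely. Of them 3 were 1.5-fold or more lower, against 7.06% of all genes. These were Aldoc, an aldolase (511 to 249), Slc2a3, a glucose transporter (11580.5 to 6469), and Pfkl, a phosphofructokinase (5119.7 to 3185). The 3 probe sets of Pfkl went in both directions, from -0.83 to 0.28. The glycolysis median turned positive (0.18) without probe sets whose ID suffix (x, s or a) marks sequence shared between transcripts. These orders were not tested.

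**Figure D5:**
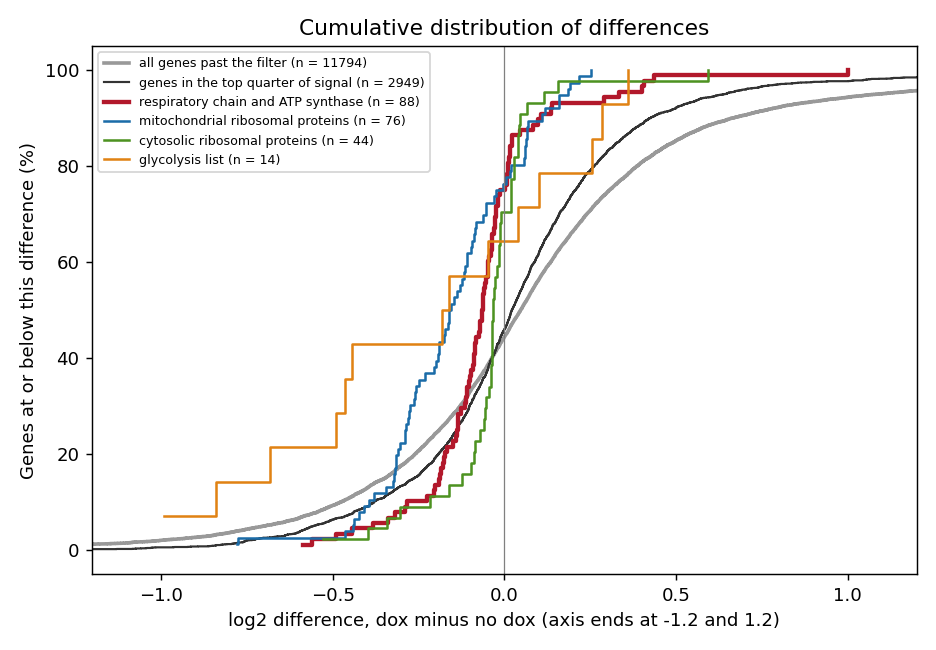
Cumulative share of genes (y axis, %) at or below each log2 difference (x axis, dox minus no dox, shown from -1.2 to 1.2) for the members, the families compared, all genes past the filter and the brightest 25% of them. The curve of the members is steep around -0.064 with 75% of genes below 0, that of all genes is shallower with 44.4% below 0, and the mitochondrial ribosomal genes lie to the left (median -0.16).

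Genes that build complex IV differed from its subunits in their median. Of 20 measured assembly genes 16 were higher, by whatever amount, against 6556 of all 11794 genes. None passed 1.5-fold, against 18.9% of all genes in either direction. The median of the 20 was 0.13 against -0.068 for the 14 subunits. The largest differences were those of Lrpprc, which stabilises mitochondrial messenger RNA (2811 to 1943, -0.53), Coa7 (1114 to 773, -0.52) and Sco2, which delivers copper (644 to 899, 0.47). The list median was -0.049 when each array was divided by its median, and 0.015 without probe sets of shared sequence, then below the median of all genes. Assembly genes of the other complexes had a median of -0.014 over 14, with 6 higher, 8 lower and none past 1.5-fold. Among them both assembly factors of the ATP synthase head were lower, Atpaf1 (1400.1 to 959.8, -0.54) and Atpaf2 (691 to 496, -0.47). The third by size was Sdhaf2 of complex II (1079.5 to 1383, 0.35).

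Regulators of mitochondrial gene expression included 1 gene 2-fold or more lower and 1 higher of 20 measured, with a median of -0.13. Over all genes 7.75% passed 2-fold in either direction. Polg, the polymerase that copies mitochondrial DNA, had 4173 without and 1642 with dox (2.53-fold lower). Its 3 probe sets gave -1.42 to -1.23. Ppargc1b, a coactivator of mitochondrial genes, had 89.7 without and 242 with dox (2.44-fold higher) and passed by its signal with dox alone, while its relative Ppargc1a did not pass. Tfb1m, a mitochondrial ribosomal RNA methylase, had 636 without and 431 with dox (-0.54). Within 0.25 lay 13 of the 20 by their brightest probe sets. Among them were the nuclear factors Nrf1 (-0.22) and Gabpa (-0.16) and the mitochondrial DNA packaging factor Tfam (-0.18), looked up after their values were seen. Their probe sets ran from -0.48 to 0.23 for Nrf1, -0.36 to -0.16 for Gabpa and -0.18 to 0.16 for Tfam. Gabpb1 (-0.34), Polrmt (-0.44), Myc (-0.44) and Esrra (0.30) lay outside 0.25. The probe sets of Gabpb1 ran from -0.58 to -0.34, those of Polrmt from -0.44 to 0.0020 and those of Esrra from -0.18 to 0.30.

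Enzymes of the citric acid cycle and pyruvate dehydrogenase, which feed the chain, held no difference of 1.5-fold either, against 18.9% of all genes. Of 18 measured, 14 were lower and 4 higher, against 44.4% of all genes lower, and the median was -0.12. The largest differences were those of Pdhx (557 to 454, -0.29), Cs, citrate synthase (6805 to 5719.7, -0.25), and Idh3g (6999 to 5907, -0.24). Fatty acid oxidation had 1 of 14 genes past 2-fold, the thiolase Acaa2 (1470.4 to 3134, 2.12-fold higher), against 7.75% of all genes in either direction. Its median was 0.033, which was -0.14 when each array was divided by its median. Hadh (9453 to 12605, 0.41) and Cpt1a (156 to 189, 0.26) came next by size. Probe sets ran from 0.55 to 1.08 for Acaa2, -0.015 to 0.65 for Hadh and 0.26 to 1.35 for Cpt1a.

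Carriers that exchange metabolites across the inner membrane and the porins of the outer one had a median of -0.014. Past 1.5-fold was 1 of 13, the citrate carrier Slc25a1 (3451 to 2211, 1.56-fold lower), against 18.9% of all genes in either direction. Slc25a5, an ADP/ATP carrier, had 12787 without and 9751 with dox (-0.39), and the carnitine carrier Slc25a20 1113 without and 1512 with dox (0.44). Slc25a4, another ADP/ATP carrier, had 11258 without and 11862 with dox (0.075). The 7 mitochondrial antioxidant genes had a median of -0.32, and 1 was 2-fold or more lower, against 7.75% of all genes in either direction. It was Gsr, glutathione reductase (691 to 268, 2.49-fold), lower by both of its probe sets. Glrx2 (1764 to 2606, 0.56) and Txnrd2 (263 to 182, -0.49) followed. The probe sets of Txnrd2 went in both directions, from -1.10 to 0.10. Among 12 genes of the hypoxia response and fuel choice, 2 were 1.5-fold or more lower, against 7.06% of all genes. They were Egln3, an oxygen-sensing prolyl hydroxylase (4221 to 729.9, 5.68-fold), and Vegfa (2326 to 1532, 1.51-fold). Ldhb differed by -0.55 (2877 to 1956). The probe sets of Vegfa and Ldhb went in both directions, and the list's median was -0.13. It was -0.015 when probe sets were averaged and 0.059 without probe sets of shared sequence.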

How the data were processed

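RNA levels were read from 2 samples on Affymetrix 3′ arrays, 1 per condition, from 100 ng of total RNA each, amplified into biotin-labelled RNA per the labels' protocols. Each probe set has 1 intensity per array in the deposited table, on a linear scale. How the authors summarised and scaled it is not stated in the labels. The floor of 1 holds 1165 probe sets on the array without dox and 1102 on the other. The table used here gives no detection calls, so background and saturation could not be judged. Precision is limited by having 2 arrays.

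Gene symbols came from the platform annotation. All 184 member probe sets had an Entrez number in RefSeq (GRCm38.p6), with the same symbol. The array probe sets carry no coordinates, since the labels name no build for them, and the coordinates printed are those of the RefSeq promoters. Signals were analysed as log2(signal + 16), which understates the change of dim genes, with Python 3.11.15, numpy 2.4.6 and pandas 2.3.3. Each gene took its brightest probe set, and a gene passed when its signal reached the 50th percentile of at least 1 array. With 1 sample per group there is no test, and genes were described by fixed sizes of 1.5-fold and 2-fold. The 2-fold call was tested on simulated data with larger changes in bright genes, which says nothing about smaller differences or dim genes. The members, lists and rules were chosen with earlier results of these data known. Both signals were given for members past 1.5-fold, core subunits, isoforms and members whose probe sets differ by 1 or more, and in each list for the 3 genes with the largest difference; others were named after their values were seen. Alternatives changed the pseudocount, scaling, filter and choice of probe set. Protein sequences were not used here.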

Additional observations from a re-analysis of the deposited data

How the results depend on the processing

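With no replicates, no sample could be left out, and no test was run. No paired analysis was possible because each group has 1 sample. A pseudocount of 1 and averaging probe sets changed no count by over 1.5 times and no median of the members or of a complex by over 0.1. With each array divided by its median, the medians were -0.25 for the members, -0.24 for complex I, -0.30 for its assembly factors, -0.28 for complex II, -0.23 for complex III, -0.25 for complex IV and -0.25 for ATP synthase. By that setting's construction all genes moved together, and the medians stayed below that of all genes. It left 0 members 2-fold higher and 4 members 1.5-fold lower (Ndufa8, Ndufaf2, Ndufaf5 and Ndufa4l2), with 402 genes in all 2-fold lower and 1487 genes 1.5-fold lower. Among genes past 1.5-fold, 62.6% were higher as reported, 50.9% after quantile normalization and 39.9% after division by the medians (past 2-fold 73.4%, 64.7% and 56.8%). Quantile normalization left 0 members 2-fold higher and 2 members 1.5-fold lower. A pseudocount of 64 left 0 members 2-fold higher and 0 members 1.5-fold lower. Without the filter 372 genes were 2-fold lower and 1330.0 genes 1.5-fold lower. At the 75th percentile 350.0 genes were 2-fold and 775 genes 1.5-fold higher, 135 genes 2-fold and 516 genes 1.5-fold lower, with 0 members past any threshold in either direction. A filter on both arrays, which Cox6b2 does not pass, left 417 genes 2-fold higher, 0 members 2-fold higher and 0 members 1.5-fold higher. Without probe sets of shared sequence, 64 members remained to be measured, 3 members were 1.5-fold higher (Cox6b2, Atp5c1 and Ndufab1, the last 2 by probe sets other than their brightest) and 0 members 1.5-fold lower. No named member past 1.5-fold changed sign under any alternative that gave a value: Cox6b2 ran from 0.75 to 1.12 and Ndufaf5 from -0.76 to -0.51. Of the other members followed, Ndufa8 ran from -0.74 to -0.56, Ndufs8 from -0.41 to -0.22, Atp5b from -0.47 to -0.25, Ndufb7 from 0.074 to 0.29, Cox8c from 0.14 to 0.45 and Ndufaf3 from 0.16 to 0.34.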
